A study of Homo sapiens with 24 samples.

Results

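The genes described here encode the 8 Sm-like proteins LSM1 to LSM8 and the 5′ to 3′ exonuclease XRN1. They were chosen by symbol and not by a cut on their values, but with earlier results of these data known. All 9 were found among the 20345 genes of the count table. RNA was sequenced from human melanoma cells, which the labels of all 24 libraries and the study's methods name as the established line A2058, although a legend of the study names A375, another melanoma line. Cells were transfected with scrambled siRNA (siCTRL) or siRNA against LSM14A (siLSM14A) at 20 nM, and were left without treatment (NT) or treated with hydroxyurea (HU), an inhibitor of ribonucleotide reductase, at 10 mM for 2 h. All 4 conditions carried a transfected siRNA, and cycloheximide, which holds ribosomes on mRNA, was added to the cells before lysis. From each culture, total RNA was taken from the lysate and polysomal RNA from the heaviest fractions of a 15 to 50% sucrose gradient. This gave 24 libraries, 3 of each fraction in each of 4 conditions. Total and polysomal libraries of the same condition and replicate number were taken as 1 culture, which makes 12 cultures, but the labels tie them by that number alone. Nothing in the labels says how the replicates were grown, so the p-values measure the spread between these libraries, which may be technical.

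Sm-like proteins assemble into closed rings that bind short runs of uridines. LSM2 to LSM7 are shared by both rings. With LSM1 they form the cytoplasmic ring, which sits on the 3′ end of mRNAs whose poly(A) tail has been shortened and, with its partner PATL1, promotes removal of the cap by DCP2. XRN1 then degrades the uncapped mRNA from its 5′ end. With LSM8 in place of LSM1 the ring is nuclear and binds the 3′ end of U6 small nuclear RNA, a component of the spliceosome. LSM14A, the protein depleted here, has an Sm-like domain but is not a subunit of either ring: it is a translational repressor of P-bodies, the cytoplasmic granules in which the LSM1 to LSM7 ring, decapping factors and XRN1 are also found.

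The total RNA libraries held 24789280 to 40645263 counts and the polysomal libraries 28776634 to 44897501. The lowest count of any member in any library was 232, for LSM6 in polysomal RNA, so counting error was small for all 9 genes. LSM14A, the siRNA target, lay between 80.9 and 91.0 CPM (counts scaled to a common library size) in the 6 siCTRL total RNA libraries and between 6.14 and 8.31 in the 6 siLSM14A ones, with no overlap. All 12 melanocyte and melanoma markers were detected in total RNA, from MLANA, lowest at 5.48 to 10.2 CPM, to SERPINE2. Of 9 markers of other cell types, KRT5 was at 0 in every library and none exceeded 2.83 CPM. In bulk RNA, a loss in some cells and a lower level in every cell cannot be told apart.

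All 9 genes were expressed, and their mRNA levels per length covered a wide range. Levels are given as CPM per kilobase of annotated exons, over the 12 total RNA libraries. LSM4 was highest, at 47.1 ± 1.98 (SD, n = 12), followed by LSM2 at 30.1 ± 1.67 and LSM1 at 26.7 ± 1.07. The libraries of LSM4 did not overlap with those of any other member, whereas those of LSM2 and LSM1 overlapped. LSM7 (16.1 ± 2.45), LSM3 (15.4 ± 1.32) and LSM5 (13.4 ± 0.855) formed a middle group whose neighbours overlapped. LSM6 followed at 5.36 ± 0.466 and LSM8 at 3.70 ± 0.119, and XRN1 was lowest at 1.88 ± 0.192. None of these 3 overlapped with its neighbours in the order.

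The place of LSM4 at the top and of LSM6, LSM8 and XRN1 at the bottom was the same when the length of the longest or of the canonical transcript was used. The order of the others was not: LSM7 moved up to the place next to LSM4, at 38.1 ± 5.81 with the longest transcript and 55.1 ± 8.40 with the canonical one. LSM8 depends most on the annotation, since its exons span 17309 bases in the union, with a 3′ untranslated region of 12033 bases in the canonical transcript, around a coding sequence of 291 bases. The levels of the 9 genes in every library are shown in the plot of CPM by condition.

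**Figure D1:**
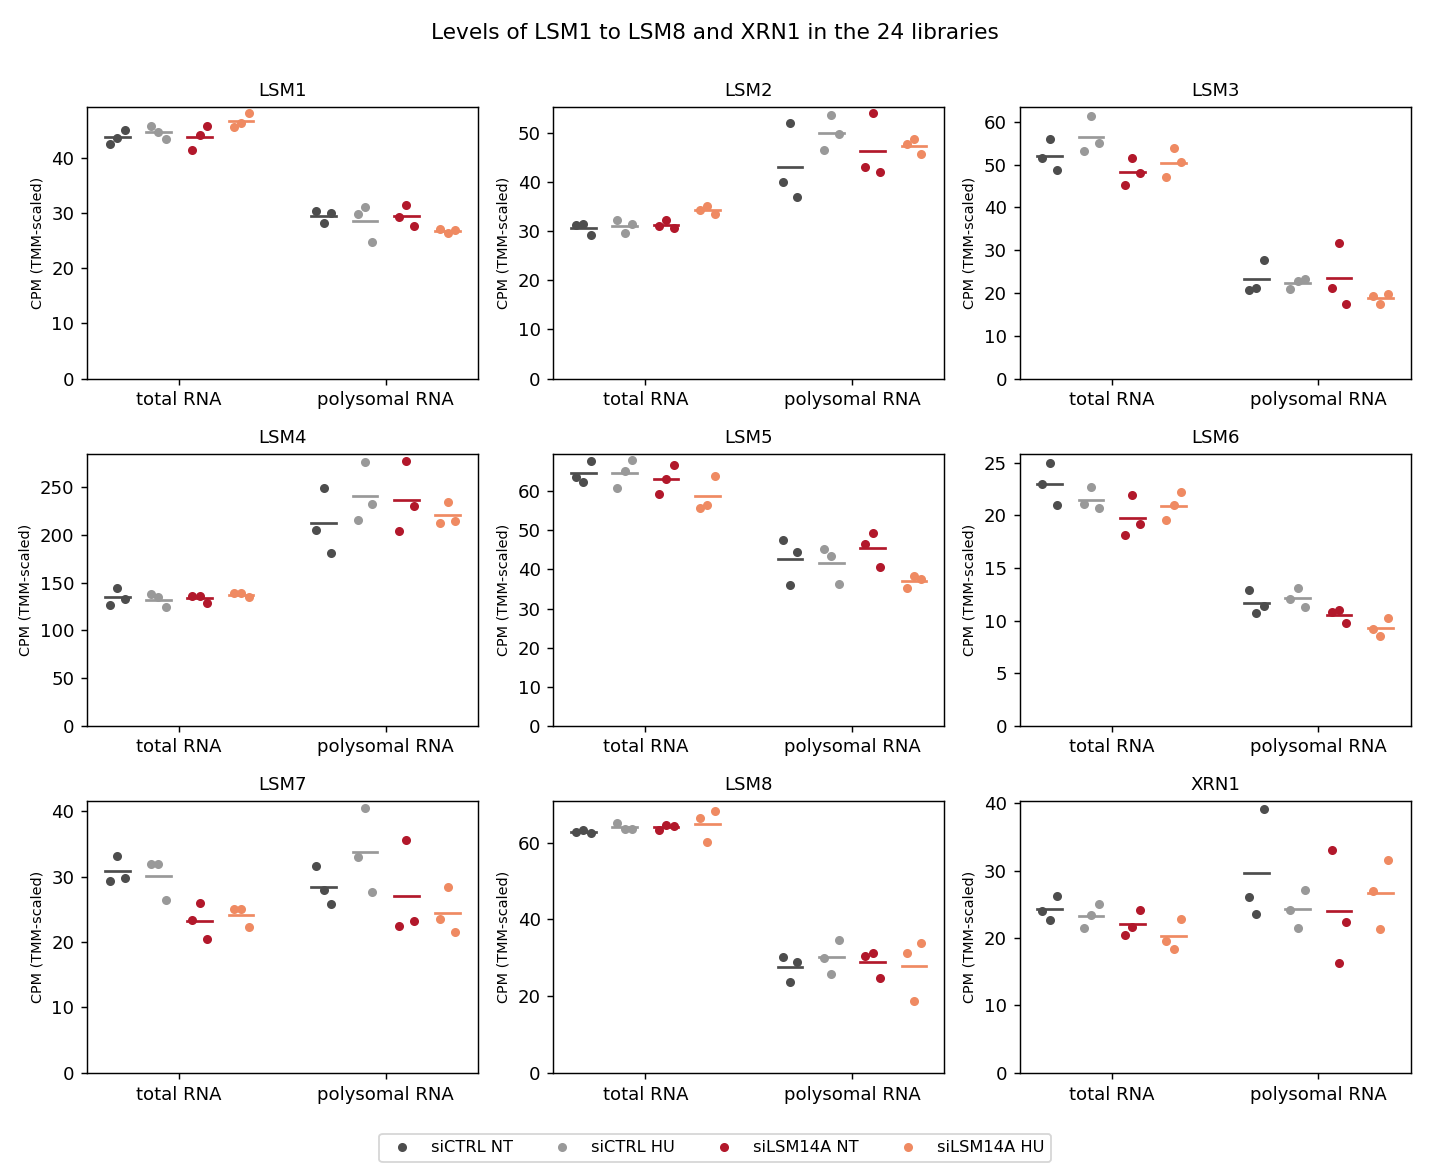
TMM-scaled CPM (y axis, from 0) of each gene in total and polysomal RNA, with 1 point per library, 3 replicates side by side and a line at the mean of each condition. LSM1, LSM3, LSM5, LSM6 and LSM8 are lower in polysomal than in total RNA, LSM2 and LSM4 are higher, and in total RNA the siLSM14A libraries of LSM7 lie at 20.4 to 26.02 CPM, below the siCTRL libraries.

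The members are spread over the genome (hg19). LSM2 is on chromosome 6 (31765173-31774743, minus strand) and LSM6 on chromosome 4 (147096855-147121152, plus). LSM3 (14220317-14242622, plus) and XRN1 (142025449-142166904, minus) are far apart on chromosome 3. LSM5 (32524950-32534895, minus) and LSM8 (117824198-117844089, plus) are on chromosome 7, and LSM4 (18417046-18433922, minus) and LSM7 (2321519-2328610, minus) on chromosome 19. LSM1 shares 37.95% of its exon bases with BAG4 and ENSG00000253356 on the opposite strand. The library kit kept strand, but the strand setting of the counting was not given in the sources used here, so reads of LSM1 and these genes may not be fully separated. Processed pseudogenes named after LSM1 (2), LSM3 (4) and LSM6 (1) are annotated and could take up some of their reads.

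The share of each mRNA in heavy polysomes was compared with its share in the total RNA of the same cultures. This asks how strongly each transcript is represented in the heaviest gradient fractions. The gradient sorts mRNAs by the ribosomes they carry, a number that a short coding sequence limits. A low ratio is therefore not a measure of low translation. Subunits of the same ring went opposite ways. Averaged over the 4 conditions, LSM3, LSM8, LSM6, LSM1 and LSM5 were lower in polysomal than in total RNA, and LSM4 and LSM2 were higher. The count was 2 members higher and 5 lower at an adjusted p under 0.05 by edgeR's quasi-likelihood test. Of all 12855 genes tested in this mean, 40.2% were higher and 44.2% lower, so a call in itself does not set these genes apart. The median log2 difference was -0.59 for the 9 members and -0.06 for all genes. Without any pairing of libraries, all 12 polysomal libraries of LSM2 and LSM4 lay above all 12 total RNA libraries in CPM, as they did for 24.2% of genes, and those of LSM1, LSM3, LSM5, LSM6 and LSM8 lay below, as they did for 25.2%.

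LSM3, a subunit of both rings, differed most. Its log2 ratio of polysomal to total CPM was -1.31, -1.41 and -0.82 in the siCTRL NT cultures, -1.35, -1.42 and -1.25 in siCTRL HU, -1.10, -0.70 and -1.47 in siLSM14A NT, and -1.29, -1.62 and -1.35 in siLSM14A HU. It was below 0 in all 12 cultures, and 8.27% of all genes had a lower mean ratio. The fitted log2 difference was -1.24 (SE 0.08, edgeR adjusted p = 1.65e-12). LSM8, the subunit that defines the nuclear ring, followed at -1.16 (SE 0.08, edgeR adjusted p = 5.3e-12), with cultures between -1.69 and -0.88 and a median of -1.10. LSM6 stood at -0.97 (SE 0.06, edgeR adjusted p = 5.74e-13).

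LSM1, the subunit that defines the cytoplasmic ring, and LSM5, which both rings contain, were less reduced. LSM1 ranged from -0.83 to -0.48 over the cultures, with a fitted log2 difference of -0.64 (SE 0.05, edgeR adjusted p = 1.14e-11). LSM5 ranged from -0.91 to -0.36, with a difference of -0.59 (SE 0.06, edgeR adjusted p = 1.18e-09). Both were below 0 in 12 of 12 cultures, and their ranges overlapped.

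LSM4 and LSM2, shared subunits of both rings, were above 0 in 12 of 12 cultures. LSM4, the member with the highest level, ranged from 0.45 to 1.04, with a fitted log2 difference of 0.76 (SE 0.06, edgeR adjusted p = 6.08e-11), and 82.1% of all genes had a lower mean ratio. LSM2 ranged from 0.33 to 0.86, with a difference of 0.55 (SE 0.06, edgeR adjusted p = 6.77e-09). The 12 cultures of LSM4 and LSM2 therefore did not overlap with those of LSM1, LSM3, LSM5, LSM6 or LSM8.

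LSM7 was near equal in both fractions, at 0.07 (SE 0.08, edgeR adjusted p = 0.407), with 7 cultures above 0 and 5 below. XRN1 was at 0.21 (SE 0.10, edgeR adjusted p = 0.0539), with 9 cultures above 0 and 3 below. It had the widest spread of the 9, from -0.41 in siLSM14A NT replicate 2 to 0.70 in siLSM14A NT replicate 1, which are replicates of the same condition. XRN1 passed with DESeq2 (adjusted p = 0.0205), and in edgeR with RLE size factors (adjusted p = 0.0265), over all genes (adjusted p = 0.0492) and blocking on replicate (adjusted p = 0.03), and with the culture as a block it did not, at 0.0534. It also passed in the mean without siCTRL NT replicate 2, siLSM14A HU replicate 2, siLSM14A NT replicate 2 or siLSM14A NT replicate 3 (adjusted p of 0.0463, 0.0479, 0.0163 and 0.0488).

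**Figure D2:**
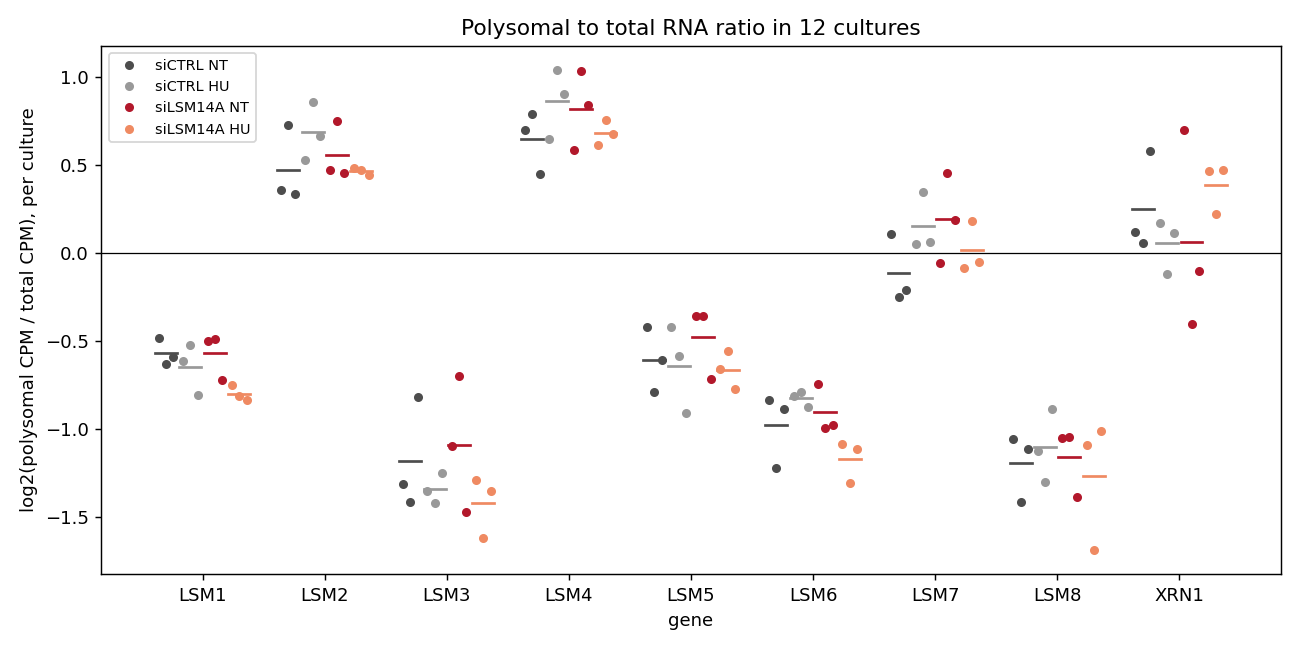
Log2 ratio of polysomal to total CPM (y axis) of each gene, with 1 point per culture, coloured by condition, and a short line at the mean of 3 replicates. LSM2 and LSM4 lie above 0 and LSM1, LSM3, LSM5, LSM6 and LSM8 below 0 in all 12 cultures, and XRN1 spreads from -0.41 to 0.70.

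Before any correction for GC content, the same 2 members were higher and the same 5 lower in each condition taken alone. In siCTRL NT, LSM8 was lowest at -1.19 (SE 0.12, edgeR adjusted p = 0.000308) and LSM4 highest at 0.65 (SE 0.13, edgeR adjusted p = 0.00311), where 31.4% of all genes were higher and 32.3% lower. In siCTRL HU, LSM3 was lowest at -1.33 and LSM4 highest at 0.88, beside 36.2% of genes higher and 37.4% lower. In siLSM14A NT, LSM8 was lowest at -1.13 and LSM4 highest at 0.85, beside 32.1% higher and 32.3% lower. In siLSM14A HU, LSM3 was lowest at -1.42 and LSM4 highest at 0.68, beside 32.8% higher and 34.1% lower. XRN1 in siLSM14A HU was at 0.40 (SE 0.16, edgeR adjusted p = 0.0535). It passed with DESeq2 (adjusted p = 0.0213), and in edgeR with RLE size factors (adjusted p = 0.0358), with no filter (adjusted p = 0.0498) and blocking on replicate (adjusted p = 0.0138). Without siCTRL NT replicate 2, 4 members passed in siCTRL NT, with LSM1, LSM2 and LSM5 lost, and among all genes 3654 passed in place of 7927. LSM2 was also lost without siCTRL NT replicate 1 (adjusted p = 0.0561). Without siLSM14A NT replicate 3, 5 members passed in siLSM14A NT, with LSM1 and LSM5 lost. XRN1 passed in siLSM14A HU without replicate 2 (adjusted p = 0.00932).

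The Sm-like proteins are short. Their coding sequences run from 243 bases (LSM6) to 420 (LSM4) with the stop codon, where the median over 18632 genes is 1311, and XRN1 has 5085. The coding sequences of LSM2 and LSM6 are printed because these subunits are both short and shared by both rings, yet lay on opposite sides of 0 in all 12 cultures. They were read from the sequences of the GENCODE canonical transcripts (lifted to hg19), 5′ to 3′, with the start and stop codons in capitals. That of LSM2 has 288 bases with a GC content of 48.61% (chromosome 6, minus strand, between 31765534 and 31774534, introns removed), and that of LSM6 has 243 bases with a GC content of 43.21% (chromosome 4, plus strand, between 147104074 and 147110808, introns removed).
LSM2: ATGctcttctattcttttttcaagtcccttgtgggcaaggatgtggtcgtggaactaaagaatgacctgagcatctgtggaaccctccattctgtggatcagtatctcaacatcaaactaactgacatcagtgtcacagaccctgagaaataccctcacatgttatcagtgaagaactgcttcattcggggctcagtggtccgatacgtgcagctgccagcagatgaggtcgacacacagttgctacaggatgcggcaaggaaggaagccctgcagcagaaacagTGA
LSM6: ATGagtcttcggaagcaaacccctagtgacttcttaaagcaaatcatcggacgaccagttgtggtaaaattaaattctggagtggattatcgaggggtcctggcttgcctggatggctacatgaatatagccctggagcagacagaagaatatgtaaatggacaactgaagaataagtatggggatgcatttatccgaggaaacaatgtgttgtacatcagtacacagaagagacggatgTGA

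The Sm-like genes all have short coding sequences, yet differed in direction. In the transcriptome as a whole the ratio rose with exon GC. Across 12784 genes with a coding length, which are not independent replicates, Spearman's rho of the log2 ratio was 0.672 with the GC content of the exons and -0.0137 with coding length. Neither value holds the other property fixed, and the part of coding length in the ratio was not tested. Among the 655 genes with a coding sequence of at most 420 bases, 27.5% were higher and 54.8% lower in polysomal RNA. Of genes with longer coding sequences, 41% were higher and 43.6% lower. Of the 655 short ones, 258 had an exon GC below 45%, and 85.7% of them were lower, beside 75.8% of genes of any length in that range. LSM3, LSM5, LSM6 and LSM8 belong to this group, with exon GC of 44.15%, 39.72%, 42.77% and 35.72%, and their calls match the bulk of it. Of the 163 short genes with an exon GC above 55%, 60.1% were higher, beside 78.6% of genes of any length in that range. LSM4 (60.68%) and LSM7 (58.9%) belong here. LSM2 (52.88%) and LSM1 (50.24%) have intermediate GC and differed in direction. XRN1 has a long coding sequence and an exon GC of 37.13%, in a range below 45% where 10.9% of genes were higher and 75.8% lower.

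**Figure D3:**
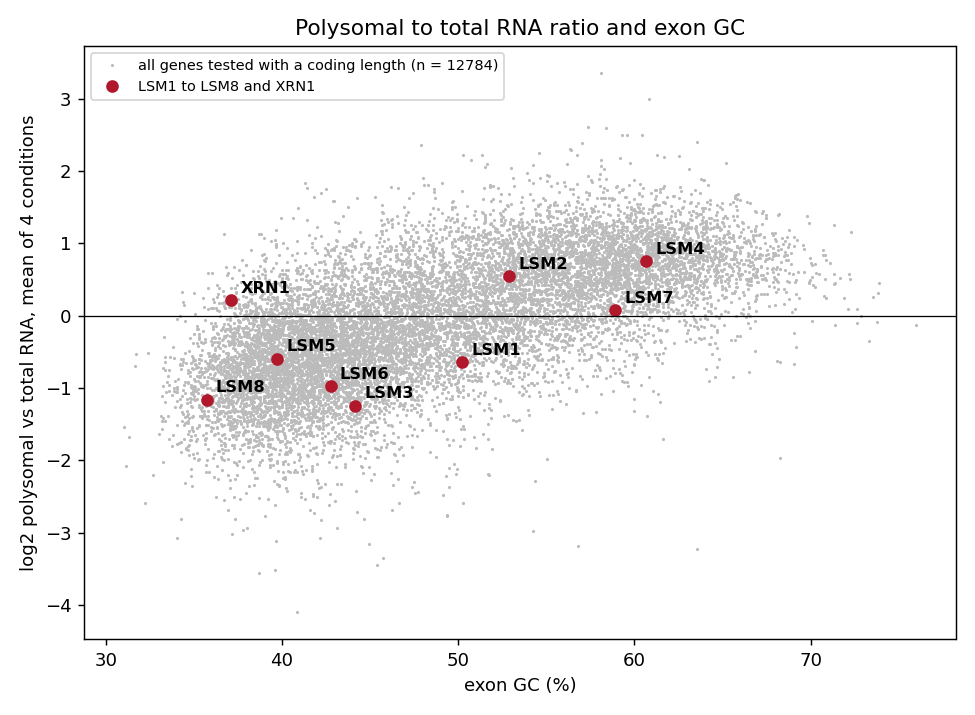
Log2 difference between polysomal and total RNA, mean of 4 conditions (y axis), against exon GC in percent (x axis), with 12784 genes in grey and the 9 members in red. The grey points rise with GC, the members below 45% other than XRN1 lie below 0 with most genes of their GC, and XRN1 lies above most genes near its GC of 37.13%.

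Because of this slope, the ratio was also fitted with the trend of each library on exon GC removed. LSM1, LSM3 and LSM6 were still lower, at -0.79 (SE 0.04), -0.88 (SE 0.08) and -0.54 (SE 0.06), with edgeR adjusted p of 1.1e-13, 3.79e-10 and 2.41e-08. LSM8 shrank to -0.27 (adjusted p = 0.00207) and LSM2 to 0.17 (adjusted p = 0.00363). The differences of LSM4 and LSM5 were no longer called, at 0.01 (adjusted p = 0.895) and 0.02 (adjusted p = 0.75). LSM7 was lower at -0.62 (SE 0.06, adjusted p = 9.3e-10) and XRN1 higher at 0.97 (SE 0.06, adjusted p = 5.26e-13). Over the main fit and all alternatives, this correction included, 10076 to 11108 genes were called in the mean, where the main fit tested 12855. A call after the correction therefore does not in itself set these genes apart. After this correction XRN1 was called higher in each of the 4 conditions, at 0.90 to 1.03, and LSM1, LSM3 and LSM7 were called lower in each. LSM6 was not called in siCTRL HU (adjusted p = 0.056). LSM8 was called lower in siLSM14A HU alone and was not called in siCTRL NT (adjusted p = 0.256), siCTRL HU (0.706) or siLSM14A NT (0.183). LSM2 was called higher in siCTRL HU alone and was not called in siCTRL NT (adjusted p = 0.534), siLSM14A NT (0.115) or siLSM14A HU (0.151). LSM4 and LSM5 were called in none of the 4. The correction uses the union of exons, so the value of LSM8, whose exons are mostly untranslated, rests on that annotation. What produces the slope was not tested.

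LSM1 and LSM8 take the same place in their rings, and their balance was compared between fractions. In total RNA the log2 ratio of LSM1 to LSM8, per kilobase of exons, was 2.85 ± 0.058 (SD, n = 12) and ranged from 2.76 to 2.99. In polysomal RNA it was 3.38 ± 0.268, from 2.89 to 3.87. Its lowest library, siCTRL HU replicate 3, fell within the total RNA range, and the others, from 3.04 up, lay above it. The size of the ratio depends on the length used, at 2.46 in total RNA and 2.996 in polysomal RNA with the longest transcript and at 3.25 and 3.79 with the canonical one, while the difference between fractions does not involve length. That difference turned with the GC correction: in the fits of the mean of 4 conditions, the polysomal to total difference of LSM1 minus that of LSM8 was 0.52 without the correction and -0.52 with it, and neither was tested. Within total RNA, neither gene differed by condition at the threshold, and the highest ratio, 2.99, was in siLSM14A HU replicate 2, the library with the lowest LSM8 at 60.1 CPM.

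Depletion of LSM14A was compared with siCTRL in total RNA to ask whether mRNA levels of the ring and XRN1 change with it. LSM7 was the member that differed most. In siCTRL NT it was at 29.4, 33.2 and 29.9 CPM, and in siLSM14A NT at 23.4, 26.02 and 20.4. In siCTRL HU it was at 31.9, 31.9 and 26.5 CPM, and in siLSM14A HU at 24.996, 25.1 and 22.3. All 6 siLSM14A libraries lay below all 6 siCTRL libraries, as they did for 1.49% of the genes tested, and no other member separated in this way in either direction.

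Fitted within each treatment without pairing by replicate number, LSM7 did not pass correction over all genes. Its log2 change was -0.41 in NT (SE 0.09, edgeR adjusted p = 0.101) and -0.33 in HU (SE 0.09, edgeR adjusted p = 0.153). These are folds of 0.754 and 0.798. DESeq2 called it in both, with adjusted p of 0.00643 and 0.0389, and in 1 edgeR fit of all 24 libraries it was at an adjusted p of 1 in both. With the replicate number as a block, LSM7 passed in HU (edgeR adjusted p = 5.41e-05), where libraries of the same number deviated together. It did not in NT (edgeR adjusted p = 0.0826), where they did not all do so. Averaged over NT and HU in 1 fit of the 12 total RNA libraries, an alternative chosen after seeing the data, LSM7 was lower, at -0.37 (SE 0.07, edgeR adjusted p = 0.00389). The difference between the NT and HU changes was 0.08 (SE 0.13, edgeR adjusted p = 1). In the edgeR fits within each treatment without a block, 0 of 9 members were called in NT, where 0.566% of all genes were. In HU 0 were called, where 0.802% of all genes were. At an unadjusted p under 0.05 by edgeR were 2 members in NT, beside 1349 of 12544 genes, and 3 in HU, beside 1065 of 12475. DESeq2 called 1 member in each, and 200 and 189 of all genes.

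The other members at an unadjusted p under 0.05 had small differences. LSM6 in NT was at -0.22 (SE 0.09, edgeR adjusted p = 0.42), with siLSM14A libraries of 18.1, 21.96 and 19.2 CPM that overlapped with siCTRL libraries of 22.95, 25.01 and 20.98. In HU, LSM6 was at 21.5 ± 1.06 CPM in siCTRL and 20.9 ± 1.32 in siLSM14A. LSM3 in HU was at -0.17 (SE 0.07, edgeR adjusted p = 0.51) and XRN1 in HU at -0.21 (SE 0.09, edgeR adjusted p = 0.556). The highest value was that of LSM2, at 0.03 in NT and 0.14 in HU.

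In the HU total RNA libraries, samples with the same replicate number deviated together, and with the number as a block 4 members were lower in siLSM14A cells. These were LSM7 at -0.32 (adjusted p = 5.41e-05), LSM3 at -0.17 (adjusted p = 0.0151), XRN1 at -0.21 (adjusted p = 0.0272) and LSM5 at -0.14 (adjusted p = 0.0395), all by edgeR. Under this block 855 genes were called in all, and 3.62% of those tested were lower. Removing the trend on exon GC as well left 2 of the 4, LSM7 (adjusted p = 0.000311) and LSM3 (adjusted p = 0.0225). Without the block, LSM7 alone passed after the GC correction (adjusted p = 0.0297) and without siCTRL HU replicate 3 (adjusted p = 0.045), which holds the lowest siCTRL value of LSM7.

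**Figure D4:**
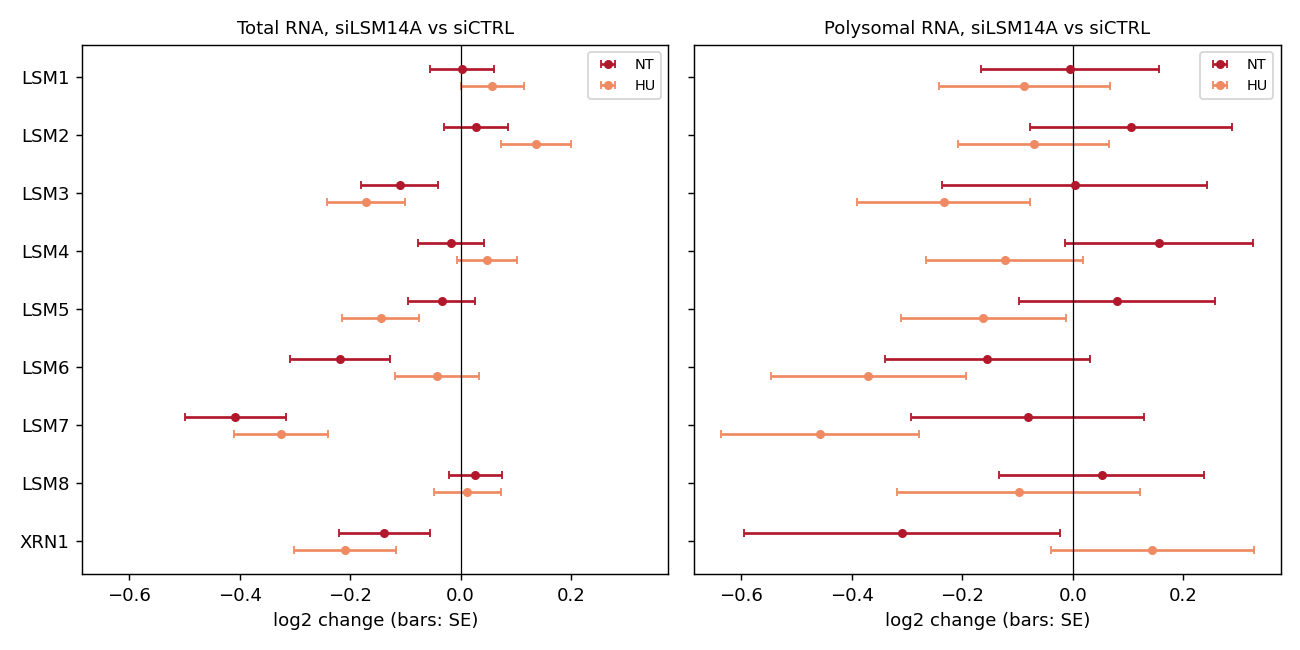
Fitted log2 change between siLSM14A and siCTRL (x axis) of each gene in total RNA (left) and polysomal RNA (right), for NT and HU, with bars of 1 SE and 3 libraries per group. LSM7 in total RNA is the point farthest from 0 relative to its SE, at -0.41 in NT and -0.33 in HU, and the errors are larger in polysomal RNA.

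In polysomal RNA none of the 9 members was called between siLSM14A and siCTRL. In NT the log2 changes ran from -0.31 for XRN1 (SE 0.29) to 0.16 for LSM4 (SE 0.17), 0 members were at an unadjusted p under 0.05, and 0.0162% of all genes were called. In HU they ran from -0.46 for LSM7 (SE 0.18, edgeR adjusted p = 0.739) to 0.14 for XRN1 (SE 0.18). There 1 member was at an unadjusted p under 0.05, beside 611 of 12256 genes, and 0.0653% of genes were called. DESeq2 called 0 members in both. LSM7 in the polysomal HU libraries was at 33.04, 40.5 and 27.7 CPM in siCTRL and at 23.6, 28.4 and 21.5 in siLSM14A, with overlap. The median SE of the members was 0.185 in NT and 0.156 in HU, against 0.0602 and 0.0690 in total RNA. For LSM7 the SE was 0.211 and 0.179, against 0.0908 and 0.0851 in total RNA.

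Treatment with HU for 2 h was compared with NT in each siRNA. Neither the ring subunits nor XRN1 differed at the threshold. In total RNA the log2 changes of the 9 members ran from -0.10 (LSM6) to 0.12 (LSM3) in siCTRL cells and from -0.13 (XRN1) to 0.13 (LSM2) in siLSM14A cells. In polysomal RNA they ran from -0.29 (XRN1) to 0.24 (LSM7) in siCTRL and from -0.30 (LSM3) to 0.15 (XRN1) in siLSM14A. In these 4 comparisons edgeR and DESeq2 called 0 members, and 0 members were at an unadjusted p under 0.05. Of all genes 0% were called by edgeR in each of them. With the replicate number as a block, which pairs the siCTRL libraries, 0 members were called in siCTRL, and among all genes 15 in total RNA and 1 in polysomal RNA.

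Relative to its mean, the widest spread within a condition was that of XRN1 in polysomal RNA. It was at 26.1, 23.6 and 39.2 CPM in siCTRL NT, at 24.1, 21.5 and 27.1 in siCTRL HU, at 33.1, 16.4 and 22.4 in siLSM14A NT and at 27.03, 21.4 and 31.6 in siLSM14A HU. In total RNA the same cultures ran from 18.3 to 26.2. The 3 polysomal libraries with the most XRN1, 39.2, 33.1 and 31.6 CPM, were the 3 with the lowest mean exon GC of their counts, 50.3%, 50.5% and 50.7%, where the polysomal libraries reached 52.2%. The part of library composition in these values was not tested.

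Translational efficiency (TE), the change in polysomal RNA beyond that in total RNA, was taken from a joint fit of both fractions, as their interaction with condition. For siLSM14A against siCTRL, TE changes ran from -0.16 for XRN1 (SE 0.33) to 0.33 for LSM7 (SE 0.24) in NT, and from -0.33 for LSM6 (SE 0.16) to 0.35 for XRN1 (SE 0.21) in HU. For HU against NT they ran from -0.22 for XRN1 (SE 0.24) to 0.28 for LSM7 (SE 0.20) in siCTRL, and from -0.37 for LSM3 (SE 0.25) to 0.27 for XRN1 (SE 0.30) in siLSM14A. In each of these 4 comparisons edgeR and DESeq2 called 0 members and 0% of all genes were called by edgeR, with 0 members at an unadjusted p under 0.05. The 4 comparisons share libraries in pairs.

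The combined effect of HU and siLSM14A, the difference between their joint and separate changes, also passed for 0 members in total RNA, polysomal RNA and TE, by edgeR or DESeq2 and at an unadjusted p under 0.05 as well. In TE it ran from -0.47 for LSM7 (SE 0.33) to 0.50 for XRN1 (SE 0.40). In total RNA it ran from -0.11 (LSM5) to 0.17 (LSM6), and in polysomal RNA from -0.36 (LSM7) to 0.47 (XRN1). Of all genes 0% were called in each. The TE change between siLSM14A and siCTRL in HU ran with exon GC across 12649 genes, with Spearman's rho at -0.644. XRN1 and LSM6 are both below 45% in exon GC and stood at opposite ends of that comparison. With the trend of each library on exon GC removed, XRN1 was at 0.07, LSM6 at -0.45 and LSM8 at -0.43 (edgeR adjusted p = 0.999 for each). The part of base composition in these TE values was not tested.

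**Figure D5:**
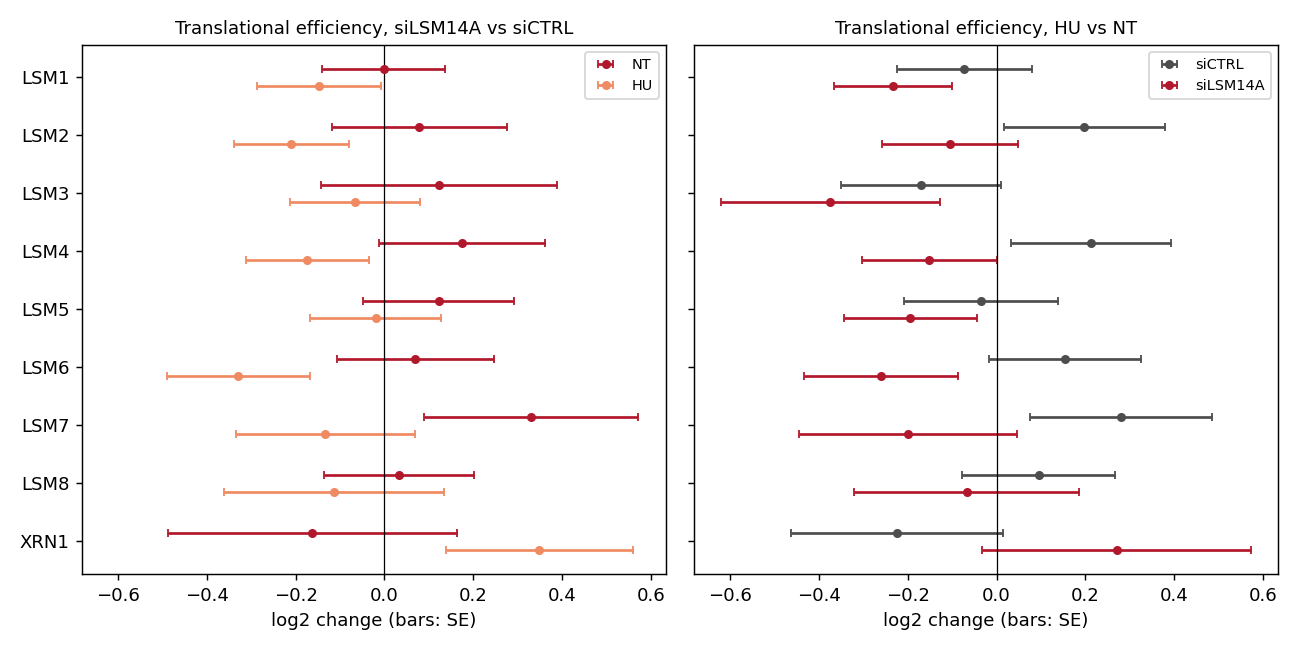
Fitted log2 change in TE (x axis) of each gene for siLSM14A against siCTRL (left) and HU against NT (right), with bars of 1 SE. Most bars cross or come near 0, and no change passed at an adjusted p under 0.05.

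The partners of the rings were read from the same fits. Of 12 genes of decapping and 5′ decay tested, 0 rose and 1 fell with siLSM14A in total RNA in NT and in HU, and the same count held in polysomal RNA. Of all genes, 0.566% and 0.802% were called in total RNA in NT and in HU, and 0.0162% and 0.0653% in polysomal RNA. The one was LSM14A itself, at -3.49 in NT and -3.67 in HU in total RNA. Among the 7 Sm proteins, which form the ring of the other spliceosomal RNAs, and the 11 partners of U6 RNA, 0 were called in either direction with siLSM14A or with HU, in total RNA, polysomal RNA or TE, where HU and TE comparisons called 0% of all genes.

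Their polysomal shares diverged as those of the members did. Of the 12 decapping and decay genes, 6 were higher and 6 lower in polysomal RNA in the mean of 4 conditions. EDC4, the scaffold of decapping, was at 1.64, EDC3, an enhancer of decapping, at 1.01 and DCPS, the scavenger decapping enzyme, at 0.93. LSM14A was at -1.39, DCP2, the catalytic subunit, at -0.94 and PATL1, which binds the LSM1 to LSM7 ring, at -0.76. Of the 7 Sm proteins, 2 were higher, SNRPB (1.32) and SNRPD2 (0.41), and 5 lower, led by SNRPD1 (-0.66), SNRPG (-0.73) and SNRPF (-0.55), where LSM1 to LSM8 had 2 higher and 5 lower. Of the 11 U6 partners, 8 were higher, led by PRPF8 (2.22), SNRNP200 (2.06) and PRPF6 (1.55), and 2 lower, LARP7 (-1.91) and USB1 (-0.43). Of 9 other proteins with Sm-like domains, 4 were higher, among them EDC3, NAA38 (0.71) and ATXN2L (0.43), and 3 lower, LSM14A, LSM12 (-0.53) and LSM11 (-0.26). The background is again 40.2% higher and 44.2% lower. These values carry no GC correction, and the part of base composition in them was not tested.

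The genes whose levels over the 24 libraries were most like the mean of LSM1 to LSM8, by Pearson's r of standardised log2 CPM, were TMSB10 (0.967), TMA7 (0.961), SNRPG (0.952), CSAG1 (0.948) and ATP5MK (0.948). Their coding sequences have 135 to 237 bases. Among those most like XRN1 were LTN1 (0.875), DENND4C (0.839), IDH1 (0.834) and BTAF1 (0.834). Of these, 3 have coding sequences of 5301 to 5877 bases and IDH1 has 1245, and their exon GC ran from 37.39% to 44.54%. These values are descriptions: the 24 libraries fall into 2 fractions and share depth and base composition. Within a fraction the subunits did not all vary together. In total RNA, Pearson's r between 2 of them ran from -0.744 (LSM2 and LSM5) to 0.712 (LSM3 and LSM6).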

How the data were processed

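RNA was sequenced from 24 libraries of A2058 cells, of total and heavy polysomal RNA in 4 conditions with 3 replicates each, grouped by their labels. Libraries were selected for poly(A) and kept strand. The authors trimmed reads, aligned them to hg19 with STAR 2.6.1a and counted reads per gene, and the deposited values are these counts, not normalized. The strand setting of the counting was not given in the sources used here. Of 20345 IDs, 19637 were found in the GENCODE annotation used (lifted to hg19), 19086 as protein-coding. The other 551 genes and the 708 IDs not found were left out of the main tests.

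Tests of the counts used edgeR 4.0.16 in R 4.3.3 (TMM, quasi-likelihood, filterByExpr at a minimum count of 10 and total of 15) over all protein-coding genes, with Benjamini-Hochberg adjustment over all of them and a threshold of 0.05. Each comparison used the libraries of its own groups. TE was the interaction of fraction and condition. CPM were TMM-scaled over the 24 libraries, and ratios were taken within a culture. The paper's tool, Xtail, was not used.

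Alternatives were DESeq2 1.42.0, RLE size factors, all genes, no filter, at least 10 counts in every library, a block for replicate or culture, a GC correction (loess, span 0.3, as offsets), 1 fit of 24 libraries, other transcript lengths and leaving out each culture. Tests were checked on simulated counts. Total and polysomal libraries with the same number were taken as input and gradient of a culture, and the main tests do not use this pairing. Deviations of the same number correlated above 0.1 in all 3 replicates in siLSM14A HU alone. They were at 0.126, 0.159 and 0.0577 in siCTRL NT, 0.116, 0.0581 and 0.142 in siCTRL HU, and -0.308, 0.115 and -0.231 in siLSM14A NT. The pairing behind the ratios per culture is thus least certain in siLSM14A NT. Between conditions, numbers paired libraries where all 3 correlations of deviations exceeded 0.1: siLSM14A and siCTRL in HU total RNA (0.331, 0.177 and 0.245), and HU and NT in siCTRL in both fractions.

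The members and lists were chosen with earlier results of these data known. Named genes were all members, LSM14A, up to 3 called genes per direction of each list and the 5 genes most like each pattern, of which 1 is not reported here. Replicates differed by more than sampling noise: chi-square per gene in 24 pairs within groups was 6.102 to 121.8. DCP1A and PECAM1 were not matched in the annotation and are not analysed here.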

Additional observations from a re-analysis of the deposited data

How the results depend on the processing

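The number of members called in each of the 20 comparisons was within 1.5 times the main count under 308 of 318 alternatives, and the same members were called under 283. In polysomal against total RNA, the GC correction lost 4 of 7 called members in siCTRL NT, siCTRL HU and siLSM14A NT, 3 in siLSM14A HU and 2 in the mean, and gained LSM7 and XRN1 in all 5, so these counts stayed within 1.5 times with other members called. The 10 exceptions in number lay in 3 comparisons. For siLSM14A against siCTRL in NT total RNA, 1 member (LSM7) passed in place of 0 with DESeq2, with no filter and in the mean of NT and HU, which was chosen after seeing the data, as was the canonical length. In HU total RNA, 4 passed with the replicate block, 2 with the replicate block and GC correction, and 1 with DESeq2, with the GC correction, in the mean of NT and HU, and without siCTRL HU replicate 3, with a range of 0 to 1 when a culture was left out. For polysomal against total RNA in siCTRL NT the range was 4 to 7. In 1 fit of all 24 libraries LSM7 did not pass (adjusted p = 1 in NT and HU), so its adjusted p ran from 0.00389 to 1 in NT and from 5.41e-05 to 1 in HU. The replicate block changed no other count of members by more than 1.5 times, and where the numbers did not pair the libraries it is a check only.

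Among all genes, the number called with siLSM14A ran from 13 to 397 around 71 in NT total RNA, from 17 to 855 around 100 in HU total RNA, from 2 to 27 around 2 in NT polysomal RNA and from 2 to 40 around 8 in HU polysomal RNA. For HU against NT it ran from 0 up to 25 in siCTRL and 6 in siLSM14A total RNA, 2 and 1 in polysomal RNA, and 16 for TE in siLSM14A, around 0. In polysomal against total RNA it fell to 3654 of 7927 in siCTRL NT and 5103 of 8067 in siLSM14A NT without replicate 2 and replicate 3, respectively.

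Directions turned mostly with the GC correction, which removes the trend of each library on exon GC. In polysomal against total RNA, without and with the block, LSM4 was at -0.049 and -0.055 in siCTRL NT and -0.028 and -0.031 in siCTRL HU. LSM5 was at 0.010 in siCTRL NT, 0.11 and 0.10 in siCTRL HU, 0.16 and 0.15 in siLSM14A NT and 0.025 and 0.020 in the mean. LSM7 was at -0.67 and -0.67 in siCTRL HU, -0.46 and -0.47 in siLSM14A NT, -0.60 and -0.60 in siLSM14A HU and -0.62 and -0.62 in the mean. XRN1 in polysomal RNA, siLSM14A against siCTRL in HU, was at -0.10 and -0.10. Of these, LSM4 and LSM5 were called in the main test, and LSM7 and XRN1 were not. Leaving out a culture turned the sign of uncalled values near 0. In total RNA, siLSM14A against siCTRL in NT, LSM2 ran from -0.0038 to 0.047 and LSM5 from -0.075 to 0.0054, and the difference between the HU and NT changes of LSM7 ran from -0.0061 to 0.17. In polysomal RNA, XRN1 ran from -0.0039 to 0.28 for siLSM14A against siCTRL in HU and from -0.063 to 0.46 for HU against NT in siLSM14A. In TE in NT it ran from -0.52 to 0.039. In polysomal against total RNA, XRN1 in siLSM14A NT ran from -0.23 to 0.35 and LSM7 in siLSM14A HU from -0.059 to 0.076.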
